A study of Mus musculus with 8 samples.

Results

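Semaphorins, their plexin and neuropilin receptors, ephrins and their Eph receptors were followed across 8 RNA-seq libraries of mouse neural progenitors, 4 of them with Bcl6 induced. The genes were taken by symbol alone, in families chosen with earlier results of these data known. These families were semaphorins of classes 3 to 7, plexins, neuropilins, ephrins and Eph receptors. Of 53 such protein-coding genes in the mouse annotation, 50 were among the 14954 genes measured. They comprised 27 ligands (19 semaphorins and 8 ephrins) and 23 receptors (8 plexins, 2 neuropilins and 13 Eph receptors). Epha6, Plxnb3 and Sema3g are not analysed here.

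The progenitors were made from the mouse embryonic stem cell line A2lox.Cre Bcl6, in which doxycycline switches on a Bcl6 transgene. All cultures of both groups carried the transgene, were grown as stem cells on irradiated feeder fibroblasts, and were differentiated in DDM medium with cyclopamine at 400 ng/ml, which blocks hedgehog signalling. At day 12 the 4 control cultures had received DMSO and the 4 induced cultures doxycycline at 1 µg/ml, in each case for 24 h. The labels call the cells cortical progenitors and number 4 differentiations in each group, from a single stem cell line. No culture with doxycycline and no transgene was among the samples, so effects of Bcl6 and of doxycycline cannot be told apart. The labels say no more about how separate the cultures were, so a p-value here measures the spread among these 8 libraries.

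Semaphorins are secreted, membrane-bound or lipid-anchored ligands that steer growth cones and migrating cells, mostly by repulsion, through plexins. Secreted class 3 semaphorins usually need a neuropilin as co-receptor, and Sema3e is known for binding Plxnd1 without one. Ephrins are held on the cell surface, by a lipid anchor in the A class and a membrane span in the B class, and signal to Eph receptor tyrosine kinases on neighbouring cells, with signalling back into the ephrin-bearing cell as well. In the developing cortex both systems are known for roles in progenitor adhesion, neuron migration and the routing of axons. Bcl6 is a transcriptional repressor.

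Levels are given as CPM, the deposited scaled read number of a gene as counts per M of its library's total. Fold changes are differences of log2(value + 1) between induced and control libraries, with the standard error (SE) and p-values from limma, two-sided and adjusted by Benjamini-Hochberg over all 14954 genes. A gene was called at an adjusted p under 0.05. The controls held 9.42 M to 9.74 M recovered reads and the induced libraries 10.33 M to 15.02 M. Bcl6 itself had 6.61, 6.01, 7.12 and 6.21 CPM in controls 1 to 4 and 392.9, 421.8, 426.8 and 324.6 CPM in induced libraries 1 to 4, a log2 fold change of 5.90 ± 0.10 (SE, limma adjusted p = 6.8e-11). Reads of the transgene and of the endogenous Bcl6 gene are counted together.

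Among all genes, 6.81% were called, with 4.55% higher and 2.26% lower in the induced cultures. Of the 50 guidance genes 15 were called (30.0%), 11 higher and 4 lower. Ligands and receptors both took part: 9 of 27 ligands were called (33.3%, 7 higher and 2 lower) and 6 of 23 receptors (26.1%, 4 higher and 2 lower). The members that rose were Sema3c, Sema3d, Sema3e, Sema4b, Sema7a, Efna1, Efnb1, Nrp2, Plxnd1, Epha1 and Epha2, and those that fell were Sema5b, Efnb2, Epha8 and Ephb1. By family, the calls fell on 6 of 19 semaphorins (5 higher), 2 of 10 plexins and neuropilins (both higher), 3 of 8 ephrins (2 higher) and 4 of 13 Eph receptors (2 higher).

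The fold changes were modest beside that of Bcl6. The median log2 fold change was 0.21 over the 50 genes, 0.17 over the ligands and 0.24 over the receptors, against 0.03 over all genes. Without control 1 the ligand median was 0.16 and the receptor median 0.08, so the order of ligands and receptors turned around. With a trend on transcript length taken off each library, they were 0.07 for ligands and 0.15 for receptors, with receptors above ligands again. Fold changes were positive for 34 of the 50 genes (68.0%) and for 55.4% of all genes. Every induced library lay above every control for 15 of the 50 genes, where 10.8% of all genes did so, and below every control for 4, where 6.32% did. At an unadjusted p under 0.05, which 23.7% of all genes reached, 19 guidance genes were higher and 6 lower. The excess of higher over lower calls among all genes (681 and 338) depended on the scaling, at 536 and 424 with median-of-ratios and 501 and 474 with upper quartile scaling, while the guidance genes had 9 higher and 4 lower under both.

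**Figure D1:**
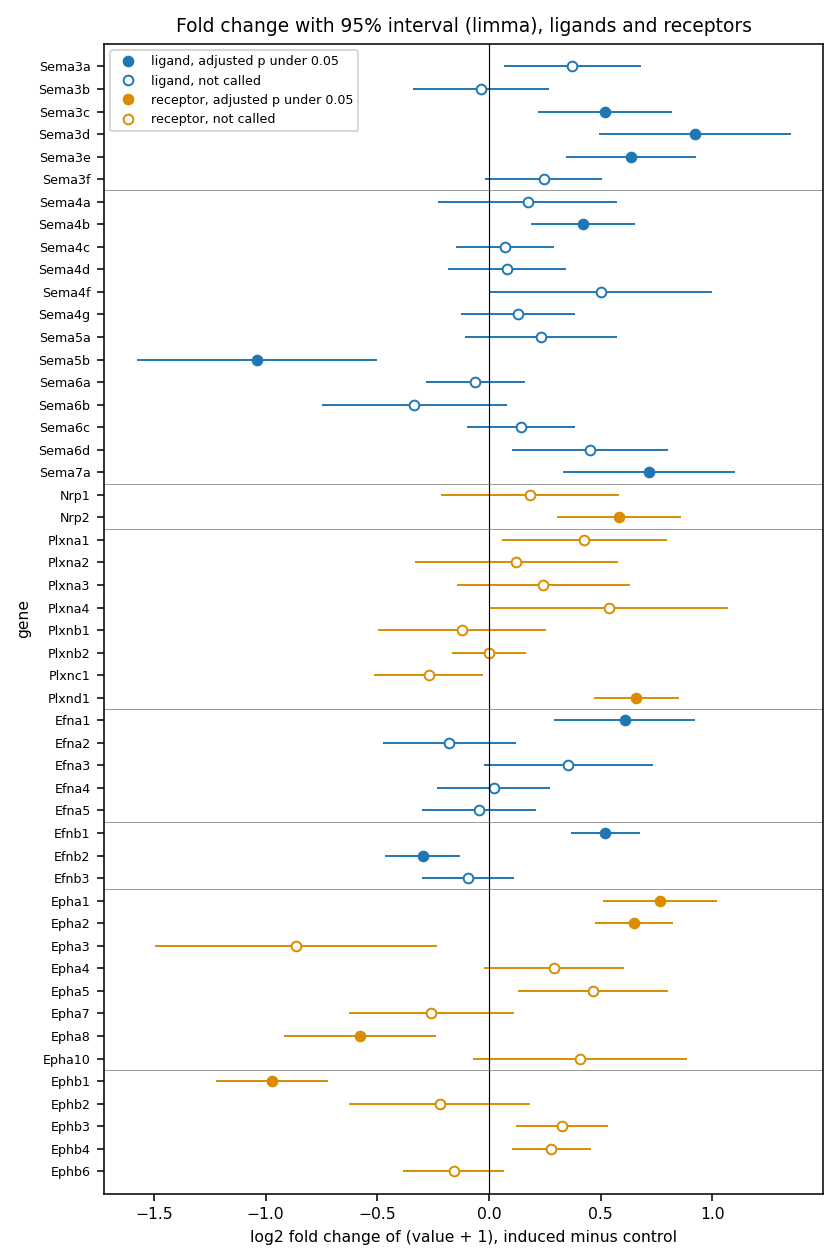
Log2 fold change of value + 1, induced minus control, with its 95% interval from limma, for 27 ligands (blue) and 23 receptors (orange), filled where the adjusted p was under 0.05. Filled points lie on both sides of 0, 11 to the right and 4 to the left, and include ligands and receptors in each direction.

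Control 1 differed from the other controls in a way that followed transcript length, and this touches the long plexin and semaphorin transcripts. The rank correlation (Spearman) of its deviation from the control mean with transcript length was -0.73 over 11860 genes, and 0.18, 0.52 and 0.52 for controls 2 to 4; genes are not independent replicates. Control 1 was the lowest control for 17 of the 18 guidance genes with a longest transcript of at least 6 kb (94.4%), where 82.1% of all genes of that length had their lowest control value there. For the 32 shorter genes it was the lowest for 8 (25.0%), near the 24.7% of all shorter genes. All 8 plexins and 5 of the 6 class 3 semaphorins had their lowest control value in control 1. Without that library the median log2 fold change of the 50 genes was 0.13, that of the plexins went from 0.18 to 0.01, and that of the class 3 semaphorins from 0.45 to 0.33, with 16 of the 50 genes called against 11.3% of all genes.

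**Figure D2:**
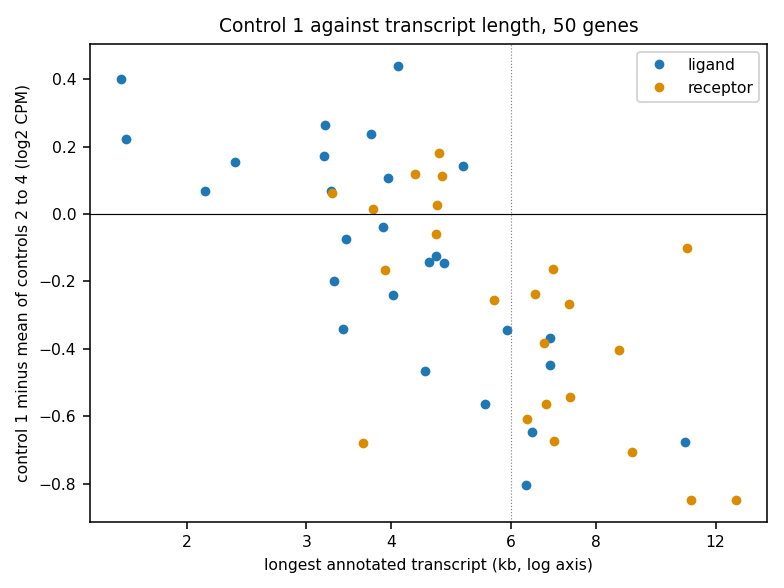
Control 1 minus the mean of controls 2 to 4 (log2 CPM, vertical) against the longest annotated transcript (kb, log axis) for the 50 genes, ligands in blue and receptors in orange; the dotted line marks 6 kb. Of the 18 genes at or right of the line, control 1 was the lowest control for 17.

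Markers of several cell types moved with the groups. Of 10 neural progenitor markers 6 fell (their summed level was 1646 to 2012 CPM in controls and 1133 to 1502 CPM in induced libraries), and 8 of 12 neuron markers rose (1002 to 1240 and 1642 to 1956 CPM). Of 5 surface epithelium markers Krt8, Krt18 and Cdh1 rose (summed 689.2 to 800.0 and 902.4 to 1038 CPM). Epcam (mean 175.8 CPM in controls and 179.5 CPM in induced libraries) and Trp63 (1.265 and 1.691 CPM) were not called. Of 5 neural crest markers Tfap2a, Tfap2b and Erbb3 rose (summed 89.7 to 110.5 and 143.9 to 159.0 CPM). Foxd3 (mean 19.2 and 16.2 CPM, log2 fold change -0.25) and Ngfr (8.51 and 10.45 CPM, 0.30) were not called, and Sox10 is not analysed here. Of 8 pluripotency markers 5 rose and 1 fell, with summed levels that overlapped (1952 to 2165 and 1849 to 2164 CPM). Of 6 cortical or telencephalic markers Lhx2, Eomes and Tbr1 rose (42.6 to 61.2 and 60.5 to 78.7 CPM), while Emx1 is not analysed here. Mesenchyme and feeder fibroblast markers (1 of 10 called, Acta2, higher), endothelial markers (1 of 6, Tek, lower) and endoderm markers (0 of 6, with 3 higher at an unadjusted p under 0.05 by limma) had summed levels that overlapped between the groups. No marker in the table was at 0. The part of any of these cell types in the results on guidance genes was not tested, and in bulk RNA fewer cells of a type and less RNA per cell cannot be told apart.

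Promoter sequence is shown for 4 members called in the comparison: Plxnd1, Epha1 and Ephb1, which are among the 5 members called in every alternative run, and Sema3e, the known ligand of Plxnd1 and the called member with a match to the motif searched. RefSeq promoter windows on GRCm38.p6, the mm10 build, were matched by symbol for 44 of the 50 genes. Each line gives the 250 bases before the gene's start, 5′ to 3′ on the gene's strand, at places where RefSeq and GENCODE put the start at the same base. The coordinates are chr5:14025026-14025275 on the plus strand for Sema3e, chr6:115995006-115995255 on the minus strand for Plxnd1, chr6:42373269-42373518 on the minus strand for Epha1 and chr9:102354694-102354943 on the minus strand for Ephb1.
Sema3e: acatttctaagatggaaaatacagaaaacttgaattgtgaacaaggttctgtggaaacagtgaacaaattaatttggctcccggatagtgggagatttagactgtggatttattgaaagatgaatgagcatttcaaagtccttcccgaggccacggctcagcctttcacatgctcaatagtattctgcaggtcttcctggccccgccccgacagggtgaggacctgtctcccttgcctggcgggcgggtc
Plxnd1: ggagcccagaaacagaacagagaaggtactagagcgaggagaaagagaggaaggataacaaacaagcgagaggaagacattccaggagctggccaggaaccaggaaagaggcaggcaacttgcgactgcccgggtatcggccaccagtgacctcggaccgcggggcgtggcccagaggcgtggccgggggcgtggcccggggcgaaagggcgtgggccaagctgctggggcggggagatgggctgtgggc
Epha1: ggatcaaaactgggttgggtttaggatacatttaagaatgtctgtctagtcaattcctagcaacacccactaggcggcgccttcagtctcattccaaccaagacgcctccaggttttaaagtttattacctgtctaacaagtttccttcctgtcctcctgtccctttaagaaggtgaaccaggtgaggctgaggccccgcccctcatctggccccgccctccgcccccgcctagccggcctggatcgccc
Ephb1: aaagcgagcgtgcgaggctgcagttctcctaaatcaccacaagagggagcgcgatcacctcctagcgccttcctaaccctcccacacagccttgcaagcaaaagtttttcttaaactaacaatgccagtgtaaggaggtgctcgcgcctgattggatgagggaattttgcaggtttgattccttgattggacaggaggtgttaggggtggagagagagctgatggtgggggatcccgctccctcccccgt

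The core motif TTCNNNGAA, which reads the same on both strands and is shared by Bcl6 and STAT sites, was searched in windows from 250 bases before to 50 after each start. It occurred in 919 of 13985 windows of genes in the table (6.57%) and in 3 of the 58 windows of the guidance genes (5.17%), which were those of Efna3, Epha3 and Sema3e. None of the 4 windows of members that fell held it. The stricter form TTCCTNGAA, searched on both strands and contained in the first, occurred in 165 windows (1.18%) and among guidance genes in that of Sema3e. There it lies just past the start, at the end of these 30 bases (chr5:14025296-14025325, plus strand), with the match in capitals.
Sema3e, bases around the match: aggcacgtgggctggagacacTTCCTAGAA
A match describes the letters of the window and no binding was measured. The windows of guidance genes had a median GC content of 64.3%, against 60.7% over all windows, and that of Epha8 reached 84.3%.

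Class 3 semaphorins, the secreted branch, rose in 3 of 6 members, and the 3 lie near each other. Sema3d, Sema3a, Sema3e and Sema3c fall in this order within 5.35 Mb of chromosome 5 (mm10, 12383385 to 17730268), and of these Sema3a was not called. Sema3e (ENSMUSG00000063531, chromosome 5, 14025276 to 14256689) had 17.3, 23.2, 21.4 and 26.7 CPM in controls 1 to 4 and 37.3, 36.6, 30.1 and 32.9 CPM in induced libraries 1 to 4. The groups did not overlap, and controls 1 and 4 were the lowest and highest of theirs. The mean went from 22.2 ± 3.90 to 34.2 ± 3.37 CPM (SD, n = 4 each), a log2 fold change of 0.64 ± 0.13 (SE, limma adjusted p = 0.019).

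Sema3d, a secreted semaphorin known from blood vessel and heart development, had 5.86, 9.22, 10.4 and 11.2 CPM in controls 1 to 4 and 20.5, 17.1, 15.0 and 15.6 CPM in induced libraries 1 to 4. Control 1 was the lowest library and induced library 1 the highest, with a gap between the groups. Its log2 fold change of 0.92 ± 0.19 (SE, limma adjusted p = 0.021) was the largest rise among the 50 genes with all 8 libraries. Without control 1 the log2 fold change of Sema3d was 0.72, below the 0.78 of Epha1. With the trend on transcript length taken off each library, Sema3d was at 0.81 and Epha1 at 0.735. Sema3c, which is known to act on cortical axons and neural crest cells through neuropilins, had 21.9, 30.5, 30.1 and 36.9 CPM in controls 1 to 4 and 44.1, 42.5, 39.3 and 42.7 CPM in induced libraries 1 to 4. The induced libraries were close together and all above control 4, the highest control. Sema3c changed by 0.52 ± 0.14 (SE, log2, limma adjusted p = 0.046).

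The calls of Sema3d and Sema3e were lost without control 2, induced 1 or induced 2, where the adjusted p was 0.061, 0.077 and 0.066 for Sema3d and 0.053, 0.075 and 0.070 for Sema3e. That of Sema3c was lost under median-of-ratios (adjusted p = 0.063) and upper quartile scaling (0.059) and without controls 2 or 3 (0.11 and 0.070) or induced libraries 1, 2, 3 or 4 (0.14, 0.13, 0.074 and 0.089). Sema3a, the secreted semaphorin best known for collapsing growth cones, had 6.93 ± 0.81 CPM in controls and 8.98 ± 0.96 CPM in induced libraries (log2 fold change 0.37, 95% interval 0.07 to 0.68, limma adjusted p = 0.13). Sema3b and Sema3f, which lie on chromosome 9, had log2 fold changes of -0.03 and 0.25 (limma adjusted p = 0.91 and 0.24). Of the 3 other genes of the table in the chromosome 5 span, Cacna2d1, a calcium channel subunit, was called higher (log2 fold change 0.68, limma adjusted p = 0.035). Pclo (0.54, limma adjusted p = 0.42) and Gm8925 (-0.49, limma adjusted p = 0.29) were not called and had opposite signs. These genes were looked at after the positions of the semaphorins were known. Summed over the 6 class 3 genes, the level was 82.8, 103.8, 109.3 and 121.5 CPM in controls 1 to 4 and 153.7, 148.3, 127.6 and 139.9 CPM in induced libraries 1 to 4, with no overlap.

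Semaphorins of classes 4 to 7, which are bound to the membrane, were called in 3 of 13 members, with Sema4b and Sema7a higher and Sema5b lower. Sema5b (ENSMUSG00000052133, chromosome 16, 35541145 to 35664732), a semaphorin with thrombospondin repeats, had 42.7, 36.4, 48.5 and 57.2 CPM in controls 1 to 4 and 18.3, 14.1, 27.2 and 34.1 CPM in induced libraries 1 to 4. The groups did not overlap, but induced libraries 1 and 2 were well below induced libraries 3 and 4. The mean went from 46.2 ± 8.87 to 23.4 ± 8.97 CPM (SD, n = 4 each), a log2 fold change of -1.04 ± 0.24 (SE, limma adjusted p = 0.030). This was the largest fall among the 50 genes with all 8 libraries. Over single libraries left out, the log2 fold change of Sema5b ran from -1.25 to -0.82 and that of Ephb1 from -1.05 to -0.91. The call of Sema5b was lost without controls 2, 3 or 4 (limma adjusted p = 0.058, 0.061 and 0.068) or induced libraries 1 or 2 (0.10 and 0.074).

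Sema7a, the lipid-anchored semaphorin that binds Plxnc1 and integrins, had 3.86, 4.76, 3.61 and 5.06 CPM in controls 1 to 4 and 8.62, 6.81, 5.71 and 7.47 CPM in induced libraries 1 to 4. Every induced library was above every control, and the level stayed low in both groups. The log2 fold change was 0.72 ± 0.17 (SE, limma adjusted p = 0.035), and the call was lost without controls 2 or 3 (0.074 and 0.067) or induced libraries 1, 2 or 4 (0.13, 0.093 and 0.075). Its receptor Plxnc1 had 24.5 ± 2.51 CPM in controls and 20.3 ± 2.27 CPM in induced libraries (log2 fold change -0.27, 95% interval -0.51 to -0.02, limma adjusted p = 0.17).

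Sema4b, a membrane-spanning semaphorin, had 30.9, 24.9, 28.7 and 33.1 CPM in controls 1 to 4 and 41.8, 41.5, 39.4 and 34.5 CPM in induced libraries 1 to 4. The gap between the groups was narrow, from 33.1 CPM in control 4 to 34.5 CPM in induced library 4. The log2 fold change of 0.42 ± 0.11 (SE, limma adjusted p = 0.040) was no longer called under median-of-ratios (0.051) or upper quartile scaling (0.062), or without controls 2 or 3 (0.11 and 0.070) or induced libraries 1, 2 or 3 (0.14, 0.13 and 0.087). Sema6d, a ligand of Plxna1, had 13.5 ± 2.88 and 18.2 ± 1.67 CPM with no overlap and was not called (log2 fold change 0.45, or 0.29 without control 1, limma adjusted p = 0.11 in both). Sema4f had 3.41 ± 0.88 and 4.76 ± 0.85 CPM (0.50, adjusted p = 0.21, and 0.30 without control 3). Of classes 4 to 7, the members with the highest mean CPM over all 8 libraries did not pass the test: Sema6a, a ligand of A plexins, had 77.5 ± 10.9 and 73.8 ± 3.30 CPM (log2 fold change -0.06, 95% interval -0.28 to 0.16) and Sema4c, a ligand of Plxnb2, had 43.3 ± 3.99 and 45.5 ± 4.83 CPM (0.07, interval -0.15 to 0.29).

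**Figure D3:**
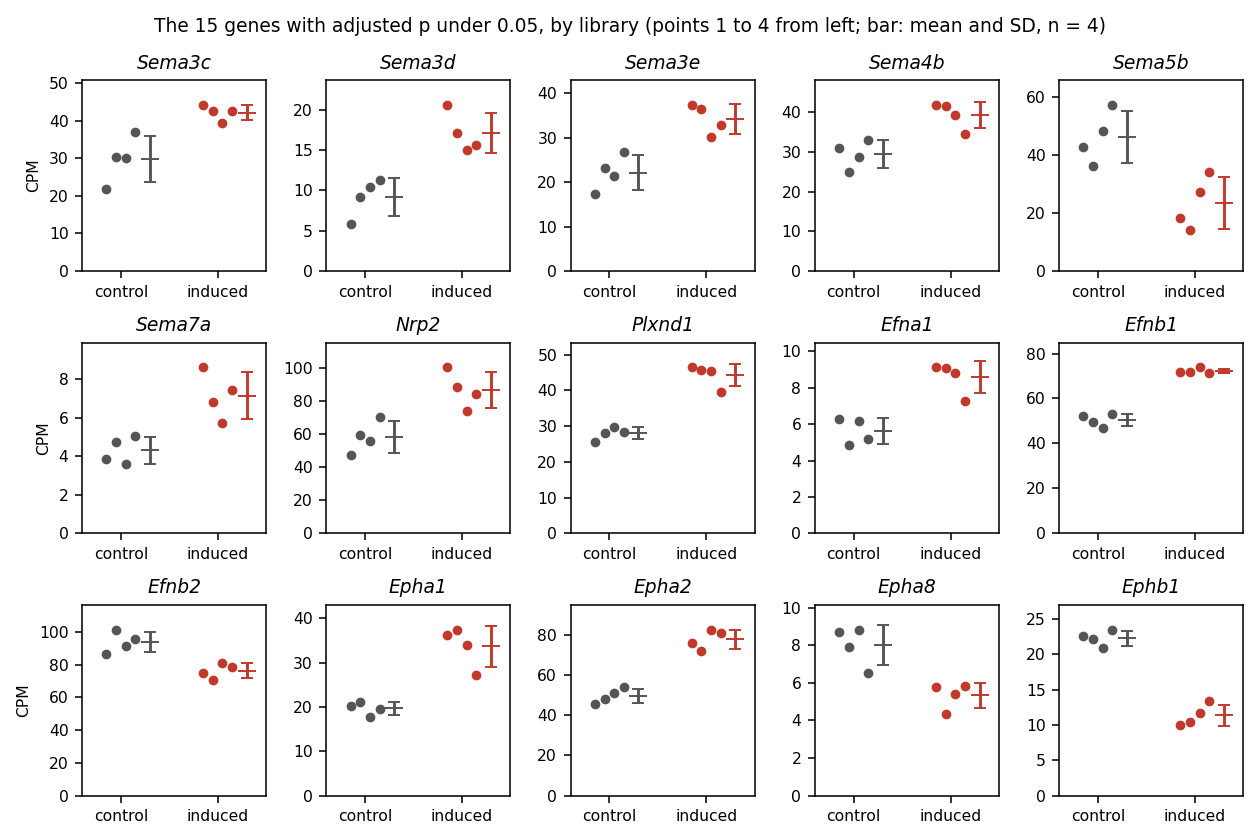
CPM of the 15 called genes in each library, controls (grey) and induced (red), each panel starting at 0; points run from library 1 to 4, and the bar gives the mean and SD of n = 4. In every panel all induced points lie on one side of all control points, for Sema4b with 33.1 CPM in the highest control and 34.5 CPM in the lowest induced library.

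Of the semaphorin receptors, Plxnd1 and Nrp2 rose and the other 8 plexins and neuropilins were not called. Plxnd1 (ENSMUSG00000030123, chromosome 6, 115954811 to 115995005), the receptor of Sema3e, had 25.7, 28.2, 29.9 and 28.3 CPM in controls 1 to 4 and 46.5, 45.7, 45.4 and 39.7 CPM in induced libraries 1 to 4. The controls stayed within a few CPM of each other and every induced library was well above them. The mean went from 28.0 ± 1.73 to 44.3 ± 3.11 CPM (SD, n = 4 each), a log2 fold change of 0.66 ± 0.09 (SE, limma adjusted p = 0.0027). The call held without any 1 of the 8 libraries, with an adjusted p of at most 0.016. Plxnd1 and its ligand Sema3e thus rose in the same cultures.

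Nrp2, the neuropilin known for binding Sema3f and Sema3c, had 47.3, 59.4, 56.0 and 70.2 CPM in controls 1 to 4 and 100.4, 88.3, 73.9 and 84.5 CPM in induced libraries 1 to 4. The groups did not overlap, and both were spread, with control 1 lowest and induced library 1 highest. The log2 fold change was 0.58 ± 0.13 (SE, limma adjusted p = 0.022), and the call was lost without control 2 (0.065), induced 1 (0.082) or induced 2 (0.074). Nrp1, the neuropilin of Sema3a, stood at 11.3 ± 2.81 and 12.7 ± 1.63 CPM (log2 fold change 0.19, 95% interval -0.21 to 0.58, limma adjusted p = 0.57), and its log2 fold change was 0.02 without control 1, 0.32 without control 4 and 0.11 without induced 4.

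The A plexins, which transmit class 3 and class 6 semaphorin signals, spread widely among the controls. Plxna1 had 104.4, 138.4, 177.4 and 201.4 CPM in controls 1 to 4 and 208.8, 189.1, 194.8 and 219.2 CPM in induced libraries 1 to 4. Control 1 was the lowest and control 4 overlapped the induced libraries. The log2 fold change of 0.43 (95% interval 0.06 to 0.80) had a limma adjusted p of 0.15, and without control 1 the fold change was 0.25 (adjusted p = 0.16). With the trend on transcript length taken off each library, the log2 fold change was 0.27 and was called (adjusted p = 0.032). Plxna4 had 7.46 ± 2.36 and 10.7 ± 2.52 CPM (0.54, adjusted p = 0.21, and 0.33 without control 1). Plxnb2, the B plexin known from cerebellar granule cell progenitors, had 255.9 ± 22.5 and 255.3 ± 8.48 CPM, with a log2 fold change of 0.00 and an interval of -0.16 to 0.17. The 8 plexins summed to 526.9, 636.7, 744.1 and 777.3 CPM in controls 1 to 4 and 738.6, 676.9, 730.5 and 801.6 CPM in induced libraries 1 to 4, so only control 1 and control 2 lay below all induced libraries.

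Ephrins moved in both directions. Efnb1 (ENSMUSG00000031217, chromosome X, 99136130 to 99148991), a B-class ephrin known for forming boundaries between cell groups, had 52.2, 49.3, 46.9 and 53.2 CPM in controls 1 to 4 and 72.0, 71.7, 73.8 and 71.5 CPM in induced libraries 1 to 4. The induced libraries were nearly equal and all far above the highest control. The mean went from 50.4 ± 2.87 to 72.2 ± 1.06 CPM (SD, n = 4 each), a log2 fold change of 0.52 ± 0.07 (SE, limma adjusted p = 0.0028). Its call held without any 1 library, with an adjusted p of at most 0.017.

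Efnb2, the ephrin known from arteries and as the partner of Ephb4, had 86.7, 101.3, 91.2 and 95.7 CPM in controls 1 to 4 and 74.7, 70.8, 81.2 and 78.3 CPM in induced libraries 1 to 4. The groups did not overlap, though the fall was the smallest of the 15 called changes. The log2 fold change was -0.30 ± 0.08 (SE, limma adjusted p = 0.042), and the call was lost when any 1 library other than control 1 was left out, with adjusted p from 0.057 to 0.15. Efna1, a lipid-anchored ephrin and ligand of Epha2, had 6.26, 4.86, 6.17 and 5.16 CPM in controls 1 to 4 and 9.12, 9.07, 8.82 and 7.27 CPM in induced libraries 1 to 4. Induced library 4 was the lowest of its group and still above all controls. Efna1 changed by 0.61 ± 0.14 (SE, log2, limma adjusted p = 0.031), with the call lost without control 2 (0.095), control 4 (0.065), induced 1 (0.11), induced 2 (0.10) or induced 3 (0.074).

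Efna1, Efna3 and Efna4 lie within 66.3 kb of chromosome 3 with no other gene of the table between them, and of these Efna3 (log2 fold change 0.36, adjusted p = 0.23) and Efna4 (0.02, adjusted p = 0.93, limma) were not called. Efna5, known for mapping axons onto their targets, had 33.3 ± 4.50 and 32.3 ± 3.58 CPM (-0.04, 95% interval -0.30 to 0.21). Efna2 had 19.9 ± 1.66 and 17.7 ± 3.31 CPM (-0.18, interval -0.48 to 0.12), and Efnb3, a ligand of Epha4 in axon guidance, 64.4 ± 5.64 and 60.5 ± 6.05 CPM (-0.09, interval -0.30 to 0.11).

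Eph receptors split evenly, with Epha1 and Epha2 higher and Epha8 and Ephb1 lower. Epha2 (ENSMUSG00000006445, chromosome 4, 141301240 to 141329384), a receptor of A ephrins known from epithelia, had 45.4, 48.3, 50.8 and 54.0 CPM in controls 1 to 4 and 76.0, 72.1, 82.6 and 80.8 CPM in induced libraries 1 to 4. The lowest induced library was well above the highest control. The mean went from 49.6 ± 3.63 to 77.9 ± 4.73 CPM (SD, n = 4 each), a log2 fold change of 0.65 ± 0.08 (SE, limma adjusted p = 0.0022), and the adjusted p stayed at 0.014 or below without any 1 library. Epha1 (ENSMUSG00000029859, chromosome 6, 42358487 to 42373268), an epithelial receptor of A ephrins, had 20.3, 21.2, 17.7 and 19.6 CPM in controls 1 to 4 and 36.2, 37.4, 34.0 and 27.1 CPM in induced libraries 1 to 4. Induced library 4 was the lowest of its group and above every control. Epha1 changed by 0.77 ± 0.12 (SE, log2, limma adjusted p = 0.0044), with an adjusted p of at most 0.024 without any 1 library.

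Ephb1 (ENSMUSG00000032537, chromosome 9, 101922128 to 102354693), the receptor known for turning retinal axons away from the midline, had 22.6, 22.1, 20.9 and 23.5 CPM in controls 1 to 4 and 10.02, 10.4, 11.7 and 13.4 CPM in induced libraries 1 to 4. Both groups were tight and far apart. The mean went from 22.3 ± 1.09 to 11.4 ± 1.52 CPM (SD, n = 4 each), a log2 fold change of -0.97 ± 0.11 (SE, limma adjusted p = 0.0018), the lowest p of the 50 genes. It was called without any 1 library, with an adjusted p of at most 0.011. Epha8, a receptor of A ephrins known from the midbrain, had 8.72, 7.91, 8.83 and 6.52 CPM in controls 1 to 4 and 5.76, 4.36, 5.41 and 5.81 CPM in induced libraries 1 to 4. The gap from control 4 to induced library 4 was narrow. The log2 fold change was -0.58 ± 0.15 (SE, limma adjusted p = 0.049), and the call was lost when any 1 library other than control 4 was left out, with adjusted p from 0.065 to 0.15. Exons of Epha1 overlap those of Zyx by 160 bases, and exons of Ephb1 overlap those of Gm26846 by 152 bases, on the opposite strand in both cases. Whether reads were counted by strand is not given in the sources used here, so reads from these stretches cannot be assigned to one gene.

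Further Eph receptors lay near the threshold. Ephb4, the receptor of Efnb2, had 93.3 ± 5.69 and 113.5 ± 9.32 CPM with no overlap (log2 fold change 0.28, limma adjusted p = 0.061), and it was called without control 1 (0.024) or induced 4 (0.039). Ephb3 had 31.3 ± 2.36 and 39.3 ± 3.63 CPM with no overlap (0.33, limma adjusted p = 0.062) and was called without control 1 (0.033). Epha5 had 12.6 ± 2.69 and 17.2 ± 1.45 CPM with no overlap (0.47, limma adjusted p = 0.096).

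Epha3, an A-class receptor, had 21.6, 28.6, 20.7 and 28.9 CPM in controls 1 to 4 and 11.4, 7.36, 18.2 and 21.7 CPM in induced libraries 1 to 4. Induced library 4 overlapped the controls, and induced libraries 1 and 2 were the lowest, as they were for Sema5b. The log2 fold change of Epha3 was -0.87 ± 0.29 (SE), with a limma adjusted p of 0.098. The adjusted p was 0.044 without induced 4, 0.24 without induced 1 and 0.20 without induced 2 (log2 fold change -0.58). With the length trend taken off it was 0.038. Ephb2, a receptor of B ephrins in dendritic spines, had 120.7, 117.2, 121.4 and 152.6 CPM in controls 1 to 4 and 87.6, 81.9, 127.4 and 155.0 CPM in induced libraries 1 to 4. Induced libraries 1 and 2 lay below all controls and induced library 4 above them, and the change of -0.22 had a 95% interval of -0.63 to 0.18 (limma adjusted p = 0.50). Epha4, which binds both classes of ephrin, had 59.5 ± 12.4 and 71.7 ± 6.08 CPM (0.29, interval -0.02 to 0.60, and 0.14 without control 1).

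**Figure D4:**
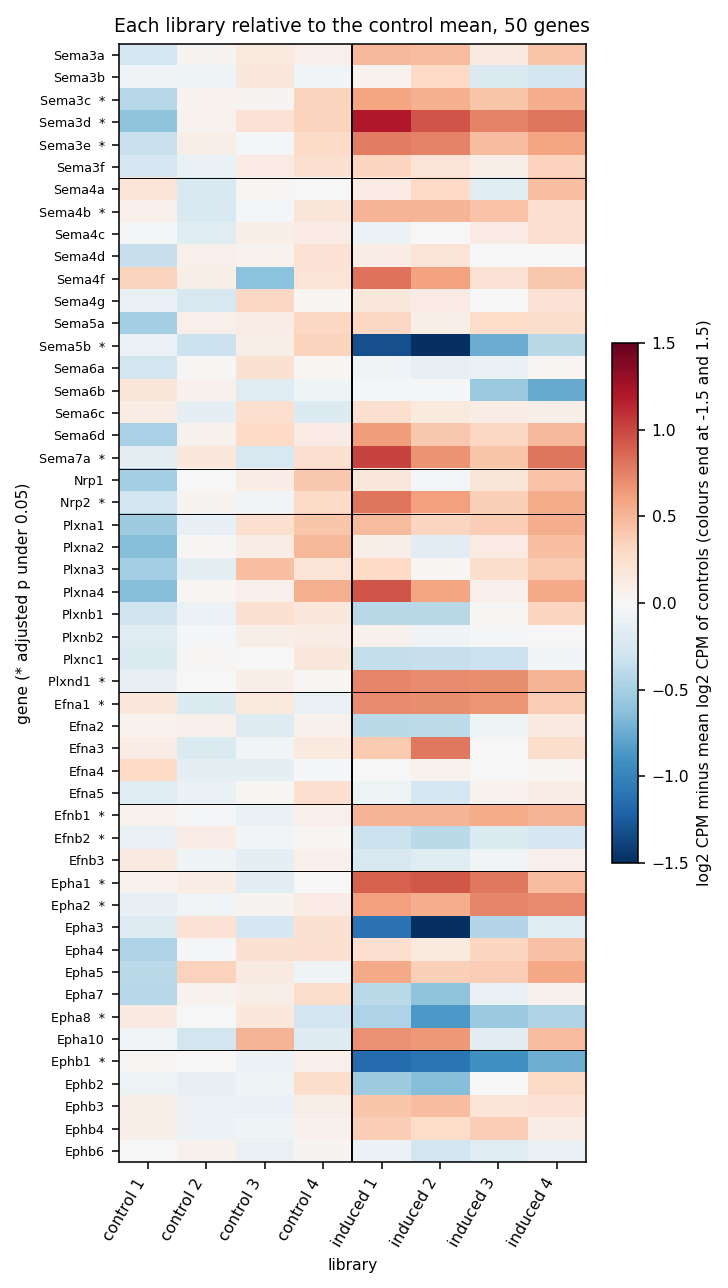
Log2 CPM of each library minus the mean log2 CPM of the 4 controls, for the 50 genes (rows, by family, asterisk where adjusted p was under 0.05) in the 8 libraries (columns); colours end at -1.5 and 1.5. Induced libraries 1 and 2 are the lowest columns for Sema5b, Epha3 and Ephb2, and control 1 is the lowest control for all 8 plexins.

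The remaining 16 members, among them Sema5a, Plxna2 and Epha7, were neither called nor under an unadjusted p of 0.05. Their log2 fold changes ran from -0.33 (Sema6b) to 0.41 (Epha10), and their lowest limma adjusted p was 0.23 (Efna3). Known ligand and receptor pairs did not share a single pattern. As examples, Sema3e and Plxnd1 rose together, as did Efna1 and Epha2, and Sema3c and Nrp2. In the B classes Efnb1 rose while Ephb1 fell. Efnb2 fell while Ephb4 had a positive fold change that was not called, and Sema7a rose while Plxnc1 had a negative one that was not called.

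Per kb of annotated exon, counted on the union of all exons of a gene, Plxnb2 had the highest level, with 33.1 CPM per kb in both groups. It was followed by Ephb4 (20.1 ± 1.23 in controls and 24.5 ± 2.01 CPM per kb in induced libraries), Plxna1 (17.2 ± 4.73 and 22.4 ± 1.51), Efnb3 (20.2 ± 1.77 and 19.0 ± 1.90) and Efnb1 (14.6 ± 0.83 and 20.9 ± 0.31). In the controls, the levels of Ephb4, Plxna1 and Efnb3 did not differ from each other beyond their spread. At the lower end stood Sema3a (0.50 ± 0.059 and 0.648 ± 0.069 CPM per kb) and Plxna4 (0.529 ± 0.167 and 0.756 ± 0.178), also within their spread of each other. The order depends on the length used. The exon union of Sema3a is 13.87 kb and its longest transcript 5.93 kb, and those of Plxna4 are 14.1 and 12.88 kb. The 15 called genes were scattered along this order, from Efnb1 at rank 5 and Epha2 at rank 6 to Epha8 at rank 43.

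**Figure D5:**
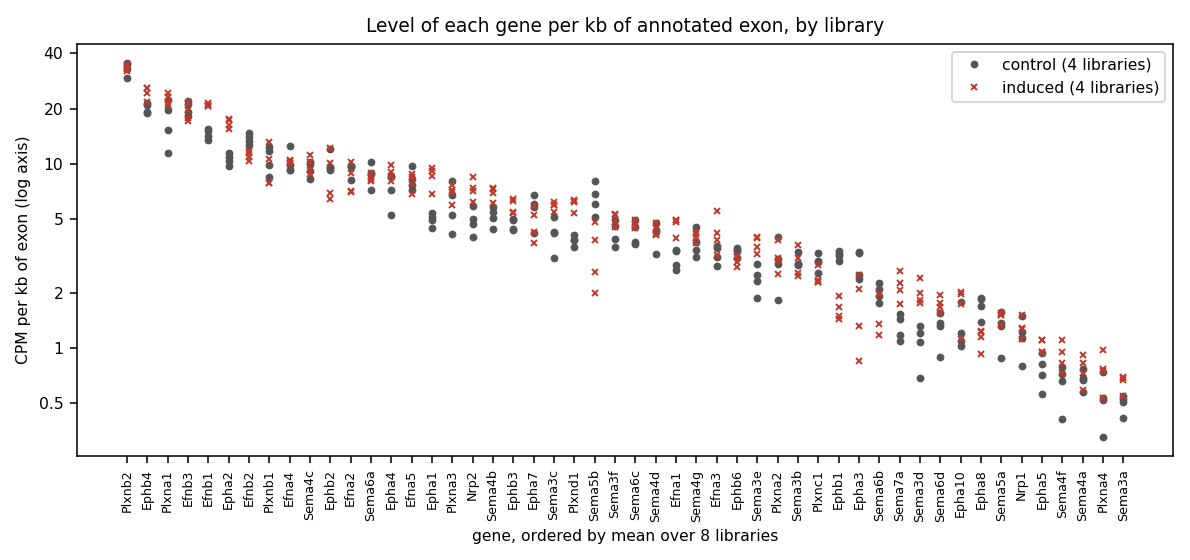
CPM per kb of annotated exon (log axis) of the 50 genes in each control (grey circles) and induced library (red crosses), ordered by the mean over 8 libraries. Plxnb2 is highest at 33.1 CPM per kb in both groups and Sema3a lowest, at 0.50 in controls and 0.648 in induced libraries.

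A list of 67 intracellular and co-receptor partners of these receptors, written from general knowledge, was also measured, and 9 were called (13.4%, against 6.81% of all genes), 7 higher and 2 lower, with a median log2 fold change of 0.08. Crmp1 (130.2 to 180.4 CPM, log2 fold change 0.47, limma adjusted p = 0.0094) and Dpysl3 (255.8 to 370.1 CPM, 0.54, limma adjusted p = 0.0040) rose. Both belong to a family of proteins that carry semaphorin signals to the cytoskeleton. Its other listed members, Dpysl2 (53.9 to 43.5 CPM, log2 fold change -0.28), Dpysl4 (-0.007) and Dpysl5 (-0.02), were not called. Limk2, a kinase of the actin-severing protein cofilin (159.9 to 213.0 CPM, limma adjusted p = 0.0065), and the kinase Src (64.9 to 83.8 CPM, limma adjusted p = 0.011) also rose. Guanine nucleotide exchange factors moved both ways: Arhgef16 (9.26 to 14.7 CPM, 0.029), Vav3 (10.4 to 14.8 CPM, 0.046) and Kalrn (30.5 to 47.1 CPM, 0.032) rose, and Ngef, which binds Eph receptors, fell from 5.08 to 2.98 CPM (limma adjusted p = 0.025). Erbb2, a receptor kinase that pairs with B plexins, fell from 49.1 to 38.9 CPM (limma adjusted p = 0.049). Without single libraries the list had 3 to 8 higher and 0 to 2 lower calls: 3 higher without induced 1 (2.06% of all genes called), 4 higher without control 2 (2.40%), induced 2 (2.34%) or induced 4 (5.44%), and 0 lower without controls 2 or 4 or induced 1, 2 or 3. At an unadjusted p under 0.05 the list had 15 higher and 3 lower, in all 26.9% of it, near the 23.7% of all genes.

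Single libraries weighed on the total as well. Of the 50 guidance genes 5 were called without control 2, without induced 1 or without induced 2, where 2.40%, 2.06% and 2.34% of all genes were called, and 9 without control 3 (5.80% of all genes). Taking the trend on transcript length off each library gave 18 called, 12 higher and 6 lower, with Epha3, Plxna1 and Plxnc1 added to the 15 and 13.0% of all genes called. Efnb1, Epha1, Epha2, Ephb1 and Plxnd1 were called in every one of these 16 alternatives.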

How the data were processed

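RNA-seq libraries of 8 cultures were made with a stranded mRNA kit, per the labels' protocols. STAR 2.5.3a, HTSeq 0.9.1, edgeR 3.20.1 and build mm10 are named in the submitters' processing notes, without role or order, and the strand setting of the counting is not given in the sources used here. The values the authors deposited are a score, not raw counts: reads scaled to a common total of 19.93 M to 19.96 M and rounded up. The authors deposited 1 table, whose decimal commas had become column breaks, so all 14954 lines were joined again and checked against the CPM deposited beside them. The other deposited columns, with the authors' statistics, had lost leading zeros in this and were not used. In each library at least 99.6% of values sat on whole multiples of 1 step, and dividing by it recovered the read totals. CPM here are the scaled values divided by their library's sum.

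Groups were compared with limma 3.58.1 (R 4.3.3, trend on expression) on log2(value + 1), a pseudocount of 1 on values that sum to about 20 M. No filter was applied, the lowest mean in the table being 15.1 scaled reads. Fold changes of low genes are understated. The script was tested on simulated data. Alternatives were pseudocounts of 0.1 and 10, other scalings, a minimum mean of 100, voom on recovered reads, a replicate block, taking a lowess trend on transcript length off each library, and leaving out each library. Gene positions and lengths are from GENCODE, on mm10, and per-kb levels use the union of all annotated exons. The labels state no pairing beyond the differentiation number, and same-numbered libraries did not deviate together in each pair, so the block stayed an alternative.

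The members, lists and tests were chosen with earlier results of these data known. Named in full were all members with an adjusted p under 0.05, with levels for the 2 highest of each of 8 subfamilies and for members with an unadjusted p under 0.05. Sequences are from RefSeq (GRCm38.p6).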

Additional observations from a re-analysis of the deposited data

Results flagged for a closer look

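Among the 100 groups of 4 values (50 genes in controls and in induced libraries), 6 held a library that stood apart from the other 3, with a gap past Dixon's 95% critical value for 4 values. Chance gives about 1 in 20 such groups. In induced library 4, Efna1 (7.27 CPM, against 8.82 to 9.12) and Plxnd1 (39.7 CPM, against 45.4 to 46.5) were lowest and Plxnc1 was highest (23.7 CPM, against 19.0 to 19.4). In control 3, Efna2 was lowest (17.4 CPM, against 20.5 to 20.8) and Sema3b highest (16.0 CPM, against 13.5 to 13.7). Ephb2 was highest in control 4 (152.6 CPM, against 117.2 to 121.4).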

How the results depend on the processing

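Over the single libraries left out, members called ranged from 4 to 13 higher and 1 to 3 lower, ligands from 1 to 7 and 0 to 2, receptors from 3 to 6 and 1 to 2, partner genes from 3 to 8 and 0 to 2, and all genes from 211 to 1146 and 93 to 551. With a replicate block, lower calls numbered 2 among members, 1 among ligands, 1 among receptors and 1 among partner genes, and 11 of the 50 members were called. Efnb2, Epha8, Sema3c and Sema4b lost their call with the replicate block (adjusted p = 0.079, 0.074, 0.052 and 0.071, limma). The correlations of deviations between same-numbered libraries were 0.030, 0.011, -0.028 and 0.374, and control 4 alone matched its own number best. A minimum mean of 100 gave 1 lower partner gene and left out Sema4a and Sema4f. Taking off the length trend gave 4 lower receptors, and 970 higher and 972 lower among all genes. The cause of these changes was not tested, other than fewer libraries or genes where some were left out. Of 543 alternative values for the 34 named members, 470 kept direction and side of the threshold, 57 lost the call, 7 gained it and 9 changed sign, all 9 in members near 0 and not called. These were Plxnb2 (-0.033 with median-of-ratios, -0.052 with upper quartile scaling, -0.112 with the length trend off, and -0.059 to 0.037 over single libraries left out), Efna5 (-0.102 to 0.043 over single libraries) and Sema6a (-0.153 to 0.015). No scaling moved the median of all genes by more than 0.06. The lowest read number of a member in any library was 21 (Sema4f, control 3).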
